A study of Homo sapiens with 6 samples.

Results

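The heated tumours and the unheated tumours on the opposite side of the same mice were compared on 4 of the 6 arrays of the study. The arrays were chosen by their titles alone, as the 2 labelled thermo-treated and the 2 labelled untreated. All tumours grew from HT-29 cells, a human line established from a colorectal adenocarcinoma, injected in both femoral regions of Balb/c (nu/nu) mice. These mice lack a thymus and mature T cells and keep other immune cells. The mice were 6 to 8 weeks old when each site received 0.1 ml of cell suspension. In the treated group 1 tumour per animal was heated for 30 min with an electromagnetic field (modulated electro-hyperthermia) 18 days later, and tissue was taken 4 h after heating. The opposite-side group held the other tumour of those animals, taken at the same time, and the 2 remaining arrays held tumours of control animals, for which the labels give no further handling. The number of mice in each group is not given in the sources used here.

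Every group is represented by a single RNA pool, measured on 2 arrays. The 2 arrays of a pool are technical replicates, so their spread is array error, and the difference between the pools has no replicate check across animals and no test. The arrays (1-colour, human probes) carried 54613 probe sets besides 62 control probe sets, and their number limits the precision. Values are log2 expression values. A probe set or gene was called detected where a pool mean was at or above 5. To be called higher or lower it needed a gap of at least 1 (2-fold) between pool means, the same sign in each of the 4 pairs of a treated and an opposite-side array, and values of 5 or more on both arrays of the pool with more signal. These conditions are called the size rule. Folds against a pool below 5 were computed from 5 and are written as "at least". In dissected tissue a lower value from fewer cells of a type cannot be told apart from less RNA per cell.

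Cells answer protein damage from heat through the transcription factor HSF1, which binds heat shock elements in promoters and switches on chaperones. The HSP70 proteins hold unfolded proteins, the HSP40 (DNAJ) proteins deliver clients to them and start their ATP cycle, and HSP110 and BAG proteins release the nucleotide. Small heat shock proteins keep damaged proteins from aggregating, and HSP90 with its co-chaperones matures kinases and receptors.

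The heated tumours differed from the opposite-side tumours in few genes, and most of these were higher. Of 7155 detected genes 20 (0.28%) were higher in the heated pool and 4 (0.0559%) were lower. Over all 12655 detected probe sets, including those that name several genes or none, 44 (0.348%) were higher and 13 (0.103%) were lower. In 14 of the 44 and in 8 of the 13 the lower pool was below 5. No probe set was lower by 2 or more, whereas 8 were higher by that much and 3 were higher by at least 4. The median absolute difference over the detected genes was 0.134. Without a minimum size, 36.6% of the detected probe sets were above and 34.7% below in all 4 array pairs. A level of 5 was reached in 1 pool only by 370 genes and 874 probe sets.

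Array error was small beside these differences. Over the detected probe sets the median absolute difference was 0.058 between the treated arrays and 0.049 between the opposite-side arrays. Between arrays of different pools it was 0.141 to 0.146. Between arrays of the same pool 0 detected probe sets differed 2-fold, and between arrays of different pools 65 to 70 did. Among the 44 higher probe sets the smallest of all array-to-array differences was 0.82, and in 36 of them every array pair differed by at least 1. Among the 13 lower probe sets 7 did so.

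The spike-in controls showed an offset between the pools. These are bacterial and phage transcripts, of which the hybridisation controls (bio and cre) are made to be added in fixed amounts before hybridisation and the poly-A controls (dap, lys, phe and thr) before labelling. The labels do not state the amounts used. Of 39 spike-in probe sets at or above 5 on all 4 arrays, 38 were higher on the treated arrays, by a median of 0.33 (1.26-fold) and a range of -0.04 to 0.50. The median was 0.32 for 18 hybridisation controls and 0.34 for 21 poly-A controls, and it lay between 0.31 and 0.34 in all 4 array pairs. Between arrays of the same pool the medians were -0.01 in both pools. Against the control pool the spike-ins were higher by 0.10 on the treated arrays and lower by 0.17 on the opposite-side arrays.

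**Figure D1:**
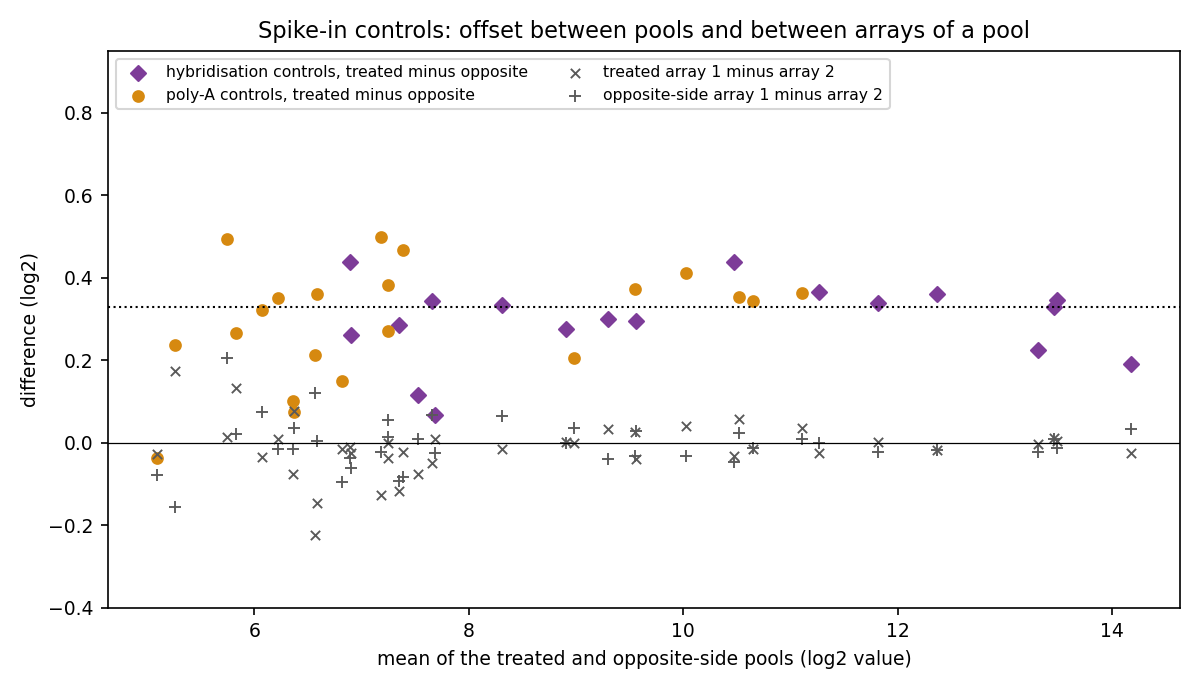
Difference (log2) of each of 39 spike-in probe sets against its mean level (log2) over the treated and opposite-side pools. Purple diamonds and orange circles are treated minus opposite-side differences, with their median of 0.33 as the dotted line, while the crosses and plus signs, the differences between the 2 arrays of a pool, lie around 0.

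The medians over the other probe sets showed no such offset at any level. The median difference of probe sets was 0.01 at levels of 5 to 7, -0.0005 at 7 to 9, -0.02 at 9 to 11 and -0.04 above 11. For the spike-ins in these ranges it was 0.26, 0.29, 0.35 and 0.34. A difference of 0 on the deposited scale therefore corresponds to -0.33 on a scale that sets the spike-ins equal. On that scale 11 genes were higher and 42 lower, and the counts of probe sets were 21 and 117. The median over detected genes, 0.01 as deposited, became -0.32. Quantile normalization of the 4 arrays moved the deposited median to -0.0024, so the arrays were already on near-equal levels. A gene median near 0 on the deposited scale therefore cannot show whether total RNA differed. Directions below are those of the deposited scale, which sets genes against the other genes of the array. The cause of the offset was not tested.

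**Figure D2:**
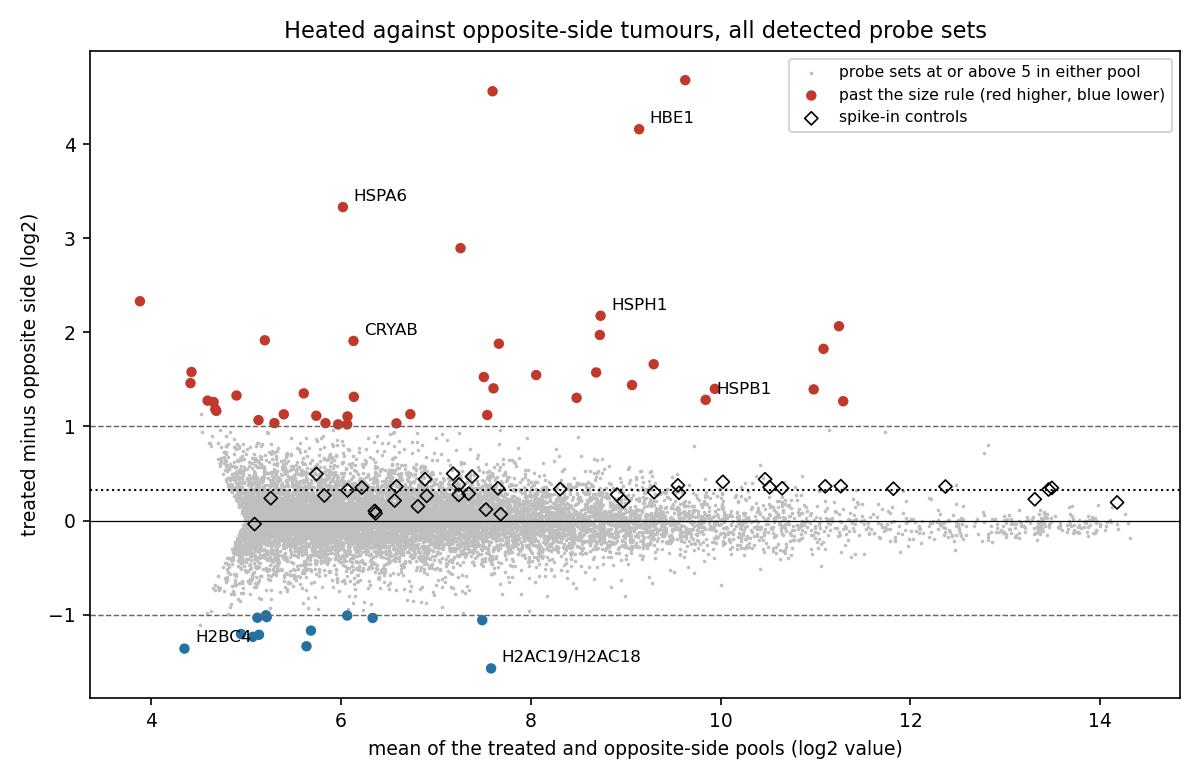
Treated minus opposite-side difference (log2) against the mean level of both pools (log2) for 12655 detected probe sets (grey), with the 44 higher (red) and 13 lower (blue) probe sets and the spike-in controls (open diamonds). Dashed lines mark differences of 1 and -1 and the dotted line the spike-in median of 0.33.

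Of the 20 higher genes 9 were on 6 lists of chaperone families, co-chaperones and HSF1-linked genes, called heat response genes here. The lists follow families, so not every member is a gene that heat induces. Of the 70 detected genes on these lists 9 (12.9%) were higher, 0 were lower and 61 did not pass the size rule. Of all detected genes 0.28% were higher and 0.0559% lower. Among the 44 higher probe sets 19 named a gene of these lists. HSPA1A, HSPA1B and HSPA8, read by shared probe sets only, are in the 19 and not in the 70. The median over the 70 genes was 0.16, against 0.01 over all detected genes. Without a minimum size, 44 of the 70 were above and 20 below in all 4 array pairs, where 38.6% of all detected genes were above and 33.2% below. The 0.16 becomes negative on the spike-in scale, where the median over all detected genes is -0.32.

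HSPA6, an HSP70 that is nearly silent without stress, had the largest difference among the heat response genes. One of its probe sets read 8.69 and 8.73 on the treated arrays against 5.72 and 5.91 on the opposite-side arrays, a 7.44-fold difference. The other read 7.70 and 7.68 against 4.42 and 4.30, at least 6.45-fold. Both probe sets separated the pools by more than 2.7 in every array pair. In the control pool they stood at 4.85 and 3.87, so the opposite-side tumours lay 0.96 and 0.49 above the control tumours.

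HSPA1A and HSPA1B, the main stress-inducible HSP70 genes, are near-identical copies and were read by shared probe sets. The probe set also annotated with HSPA1L read 12.29 and 12.27 in the treated against 10.21 and 10.22 in the opposite-side pool. The other shared probe sets were higher by 1.82 and 1.66, and neither pool's arrays overlapped with the other's in any of the 3. HSPA1L alone, a testis-enriched HSP70, had 2 probe sets of its own, which lay at or below 2.56 on the 4 arrays. In the control pool the 3 shared probe sets stood at 10.22, 10.20 and 8.72, within 0.26 of the opposite-side means.

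HSPA8, the constitutive HSP70, was read by 4 probe sets that are also annotated with small nucleolar RNAs of its introns. All 4 were higher in the heated pool, by 1.27 to 1.57. The brightest read 11.91 and 11.94 against 10.65 and 10.67. For 3 of them the control mean lay between the pools, with the opposite-side pool 0.38 to 0.52 below control, and for the fourth the opposite-side pool was 0.05 above it.

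HSPH1, the HSP110 nucleotide exchange partner of HSP70, read 9.82 and 9.83 against 7.66 and 7.64 on one probe set and 9.72 and 9.71 against 7.76 and 7.73 on the other. Its remaining probe set was below 5 in both pools and differed by 1.96 as well. The other 6 detected genes of the HSP70 list did not pass. HSPA13, a microsomal HSP70, differed by 0.25 and HSPA14, which works at the ribosome, by -0.38. HSPA1A, HSPA1B and HSPA8 had no probe set naming them alone, so they are not among the genes counted here. Over the 8 detected of 13 measured genes 2 were higher and the median was 0.22. That median becomes negative on the spike-in scale.

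Of 20 detected HSP40 genes 2 were higher, and their median was 0.13. DNAJB1, the stress-inducible partner of HSP70, read 8.59 and 8.62 in the heated pool and 6.73 on both opposite-side arrays (3.68-fold). Its other probe set differed by 0.92 and so missed the rule. DNAJA1, a cytosolic HSP40, was higher by 1.30 and 1.13 on its 2 probe sets, with the opposite-side means 0.55 and 0.47 below the control means. DNAJB2 differed by 0.44 and DNAJC11, of the mitochondrial membrane, by 0.43. The list median becomes negative on the spike-in scale.

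The small heat shock proteins and the BAG co-chaperones had 3 higher genes of 8 detected, and 7 of the 15 measured lay below 5 in both pools. CRYAB (alpha-B crystallin) read 7.10 and 7.08 against 5.18 on both opposite-side arrays, a 3.75-fold difference. HSPB1 (HSP27) read 10.48 and 10.49 against 9.23 and 9.18, which is 2.43-fold. BAG3, which links HSP70 to small heat shock proteins and autophagy, read 9.82 and 9.75 against 8.33 and 8.37, which is 2.71-fold. BAG4 differed by 0.81 and BAG1 by -0.35, on opposite sides of 0. The list median was 0.51, and 0.22 over the 7 genes with a mean over the 4 arrays at or above 5.

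Of 14 detected genes of HSP90 and its co-chaperones 1 was higher. CHORDC1, a stress-inducible HSP90 co-chaperone, read 8.35 and 8.28 against 6.89 and 6.93. HSP90AA1, the inducible HSP90, differed by 0.80, the immunophilin FKBP4 by 0.77 and STIP1, which bridges HSP70 and HSP90, by 0.50, and these missed the rule although every array pair was above 0. The median was 0.18, which becomes negative on the spike-in scale. Among the heat shock factors and other genes linked to HSF1, ZFAND2A, an arsenite- and heat-inducible partner of the proteasome, read 8.82 and 8.84 against 7.30 and 7.28. The collagen chaperone SERPINH1 differed by 0.96. The median over 9 detected genes was 0.33, and 0.0005 on the spike-in scale. Of 12 detected genes of the chaperonin list, which also holds prefoldin genes, 0 passed, with HSPD1 at 0.38, HSPE1 at 0.27 and CCT7 at -0.24.

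**Figure D3:**
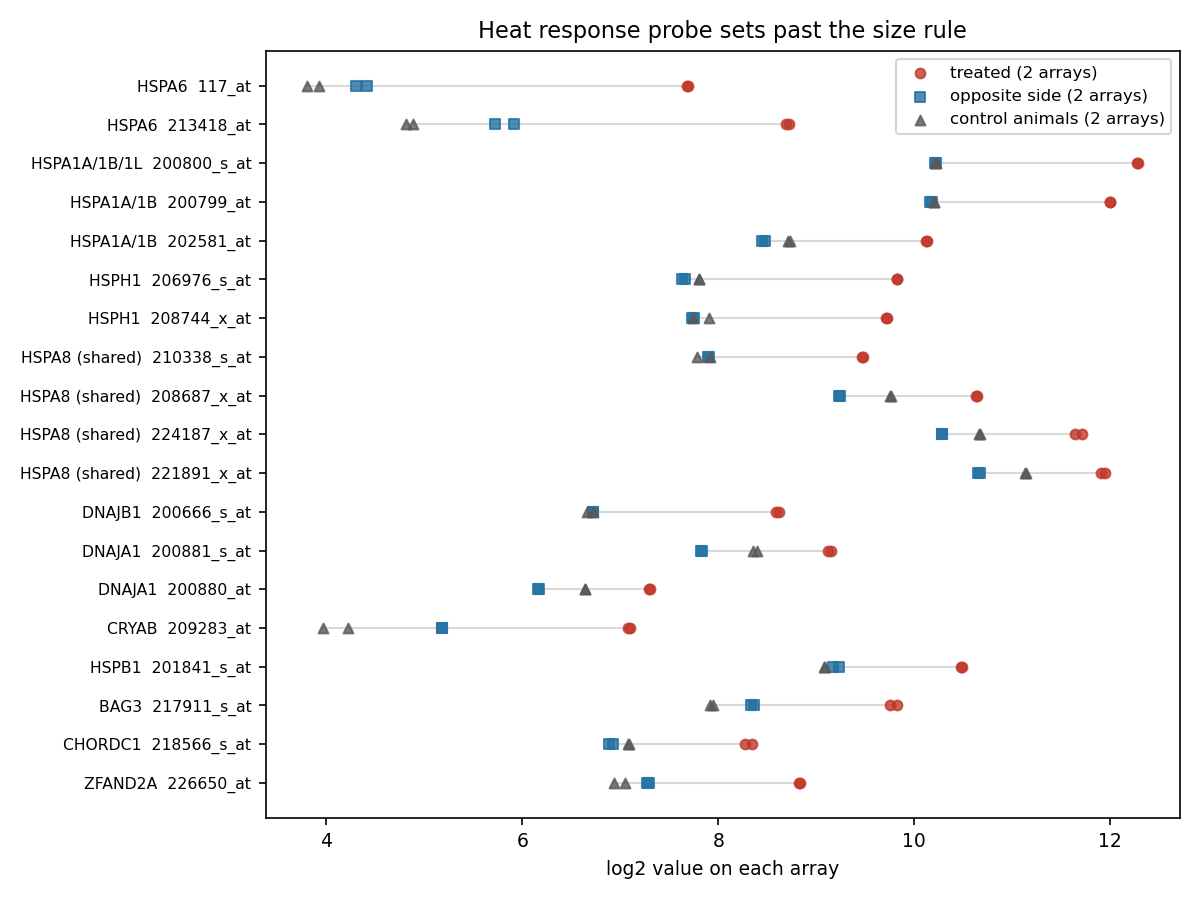
Log2 value on each array for the 19 higher probe sets that name a heat response gene, with 2 points per pool (treated red circles, opposite side blue squares, control grey triangles). In every row the treated arrays lie to the right of all others, while the opposite-side arrays lie above the control arrays for HSPA6 and CRYAB and below them for DNAJA1.

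Promoter sequences are shown for the higher heat response genes because HSF1 binds repeats of GAA in alternating orientation. Sequences are from RefSeq (GRCh38.p14), 250 bases before to 50 after each start site, and 22 of the 30 genes named by higher probe sets were matched, with 28 promoters. The 3-unit motif searched was GAA, TTC and GAA, or on the other strand TTC, GAA and TTC, with NN between the units. The 2-unit motif was GAANNTTC, which reads the same on both strands and lies within every 3-unit match. The 3-unit motif was present in 4 of these 28 promoters (14.3%) and in 172 of 35116 promoters in all (0.49%). The 2-unit motif was present in 11 of 28 (39.3%) and in 6.77% of all. These promoters are not independent, as DNAJB1 counts at more than 1 start site and HSPA1A and HSPA1B are near-identical copies. HSPA1L shares its match with HSPA1A. CEMIP, which is on none of the heat response lists, also held the 2-unit motif. Of 17 promoters of 11 genes named by lower probe sets, 0 held either motif. These matches describe letters and show no binding. The stretches below lie upstream of the start site, written along the strand of the gene, with the motif in capitals. HSPA6, CHORDC1 and HSPA8 hold the 3-unit form, and DNAJB1, HSPA1A and HSPB1 the 2-unit form.
HSPA6 (chr1:161524451-161524493, plus strand): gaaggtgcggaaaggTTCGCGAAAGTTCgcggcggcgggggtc
CHORDC1 (chr11:90223072-90223124, minus strand): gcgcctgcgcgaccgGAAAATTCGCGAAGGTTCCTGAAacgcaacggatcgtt
HSPA8 (chr11:123062164-123062206, minus strand): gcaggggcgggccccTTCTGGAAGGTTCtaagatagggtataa
DNAJB1 (chr19:14518422-14518489, minus strand): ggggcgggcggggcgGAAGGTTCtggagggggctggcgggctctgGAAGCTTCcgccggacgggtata
HSPA1A (chr6:31815422-31815459, plus strand): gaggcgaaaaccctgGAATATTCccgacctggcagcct
HSPB1 (chr7:76302476-76302513, plus strand): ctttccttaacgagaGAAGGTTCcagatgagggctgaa
The stretch shown for HSPA1A lies between HSPA1A and HSPA1L and is upstream of both. CHORDC1 held 3 overlapping matches in its stretch, and HSPA8 held a second 3-unit match further upstream. The fourth promoter with a 3-unit match was that of DNAJA1, where the match lay after the start site, from base 3 to base 15. HSPH1, BAG3 and ZFAND2A had neither form in this window.

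EGR1, a zinc finger factor switched on within minutes of growth factor or stress signalling, was higher on all 3 of its probe sets. The brightest read 8.33 and 8.21 against 6.79 and 6.70, and the others were higher by 1.58 and 1.11. It was the only gene of 19 detected immediate early genes to pass. CCN2, a matrix-associated growth factor, differed by 0.96, IER3 by 0.81, FOS by 0.77 and KLF2 by -0.56. In all 4 array pairs 15 of the 19 were above and 2 below (38.6% and 33.2% of all detected genes), and the median was 0.33 (-0.0050 on the spike-in scale). FOS, JUNB and IER3 belong to the same early wave, which normally fades quickly.

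Of 16 measured negative feedback and target genes of MAPK signalling, which ERK activity induces, 9 were detected and 0 passed the rule. The 9 detected genes were above in all array pairs, as were 38.6% of all detected genes. Of those below 5 in both pools, DUSP2 differed by 0.66, SPRY4 by 0.51, DUSP8 by 0.07 and DUSP10 by 0.05. On the other side of 0, SPRY1 differed by -0.10, ETV5 by -0.03 and ETV4 by -0.02. PHLDA1 read 7.04 in the treated and 6.29 in the opposite-side pool as pool means. The phosphatase DUSP4 differed by 0.67, DUSP1 by 0.52 and DUSP6 by 0.49. The median was 0.49, and it stayed positive (0.16) on the spike-in scale. In the control pool PHLDA1 stood at 5.71, DUSP6 at 6.69, DUSP4 at 5.05 and DUSP1 at 6.98, so that the opposite-side mean was above control for the first pair and below it for the second.

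CXCL8, the neutrophil chemokine interleukin 8, was the one higher gene of 9 detected NF-kB and inflammatory genes. It read 6.33 and 6.24 against 4.94 on both opposite-side arrays, at least 2.44-fold. Its second probe set lay between 2.47 and 2.55 on the 4 arrays. CXCL1 and the cytokine LIF each differed by 0.79 and the prostaglandin synthase PTGS2 by 0.66. The list median was 0.31, and 7 of the 9 were above in all array pairs, against 38.6% of all detected genes. Over the 7 genes with a mean over the 4 arrays at or above 5 the median was 0.23. Both medians become negative on the spike-in scale, the list median at -0.02. The list median stayed positive with scaling by the spike-in medians of the arrays.

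LGR5, a receptor that marks intestinal stem cells, read 5.51 and 5.62 against 4.19 and 4.29, at least 1.48-fold, and its second probe set lay below 2.7. It was the only one of 9 detected Wnt target genes past the rule, with the cyclin CCND1 at 0.76, ZNRF3 at 0.65 and MYC at 0.53. The median of 0.32 becomes -0.01 on the spike-in scale, and it stayed positive with scaling by the spike-in medians of the arrays. PHLDB2, which anchors microtubules at focal adhesions, read 6.24 and 6.08 against 4.45 and 4.04, at least 2.23-fold. Its other probe sets lay at or below 2.93 on the 4 arrays and differed by 0 to 0.27. SUCNR1, the succinate receptor, read 5.386 and 5.197 against 4.000 and 4.065.

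The largest differences of all lay outside the heat response lists. HBE1, annotated as embryonic haemoglobin epsilon, read 11.24 and 11.21 in the heated pool against 7.04 and 7.09 on the opposite side (17.9-fold), and 6.04 in the control pool. Its second probe set gave 2.37, the minimum of the data, on every array. Of 6 probe sets shared by the alpha globin genes HBA1 and HBA2, 1 passed the rule, at 5.003 and 5.100 against 2.683 and 2.759. The other 5 had means below 3.2, and on 2 of them the treated arrays disagreed, at 2.37 and 3.66 on one and 3.48 and 2.74 on the other. HBB lay at 2.98 and 2.92 and the erythroid enzyme ALAS2 at 2.37 in both pools. The summed linear level of the 3 measured red blood cell markers was 2382 to 2423 on the treated and 144 to 149 on the opposite-side arrays, nearly all of it HBE1.

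Of the probe sets with no gene named, 8 were higher and 3 lower. Probe set 217572_at had the largest difference of the table, at 11.935 and 12.002 against 7.29 on both opposite-side arrays and 7.03 in the control pool. Probe set 1570561_at read 9.87 and 9.89 against 5.19 and 5.45, and 3.04 in the control pool. In both the pools were apart by more than 4 in every array pair. The other 6 were higher by 1.02 to 1.46 and the 3 lower by 1.04 to 1.21.

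For several of the higher genes the opposite-side pool lay below the control pool. CEMIP, a hyaluronan-binding protein, read 6.79 and 6.81 in the heated pool and 5.59 and 5.38 on the opposite side, while the control pool stood at 6.80. KRCC1 passed on 1 of 3 probe sets and differed by 0.76 to 1.03, with the opposite-side means 0.85 to 1.07 below the control means and the treated means within 0.13 of them. BANP, a chromatin-associated protein, was higher by 1.13 and 1.07 on 2 probe sets, with opposite-side means 0.73 and 0.67 below control. The long noncoding RNA LINC00261 was higher by 1.04 and lay 0.76 below control on the opposite side. Genes just short of the rule lay on both sides of control. Of those that differed by 0.9 to 1, JMJD6 (0.94), HEPACAM2 (0.94) and IFFO2 (0.92) had opposite-side means 0.61, 0.83 and 0.57 below control. The opposite-side mean was 0.32 above control for SERPINH1, 0.26 for PI3 (0.92), an elastase inhibitor, and 0.11 for CCN2, and for UBASH3B (0.93) the opposite minus control difference was -0.07. SND1-IT1 differed by 1.13 and missed the rule because 1 treated array was below 5.

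For another set the opposite-side pool lay above the control pool, with the heated pool higher still. As opposite-side and heated values, HBE1 stood 1.03 above control on the opposite side and 5.18 in the heated tumours, CRYAB 1.09 and 2.99, ACTA1 1.00 and 2.17, and CXCL8 0.81 and 2.16. A probe set whose annotation is Igk, a mouse immunoglobulin light chain name, read 6.33 and 6.27 against 5.22 and 5.15 and stood 3.13 and 2.01 above control in the heated and opposite-side pools. Whether RNA of the mouse host contributed was not tested. For SUCNR1 the opposite minus control difference was -0.03, and for the 2 probe sets of DNAJB1 it was 0.04 and 0.32. These comparisons share the control arrays, and each is a single pool against a single pool.

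**Figure D4:**
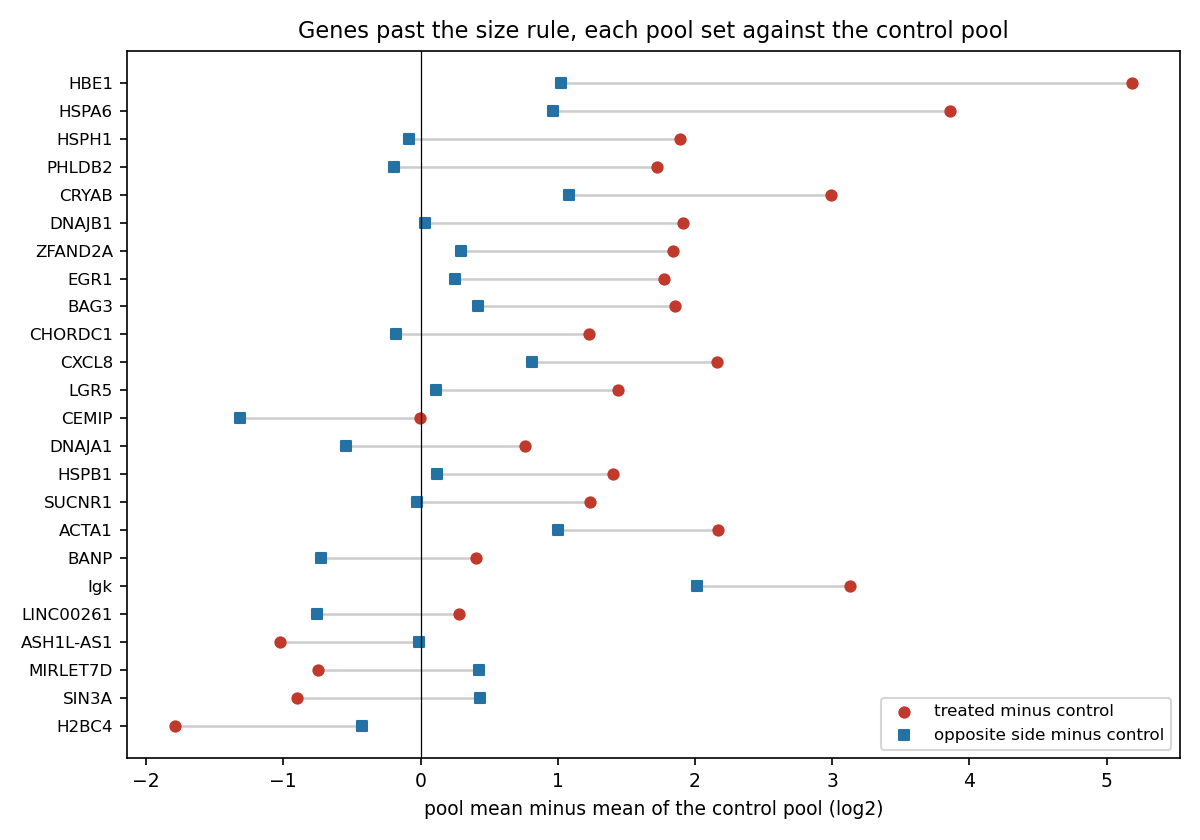
Pool mean minus the control mean (log2) for the 24 genes past the size rule, with the treated pool as red circles and the opposite-side pool as blue squares. The grey line between them is the treated minus opposite-side difference, which for HBE1 lies wholly to the right of 0, and for CEMIP begins at -1.32 and ends at the control level.

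Some histone probe sets were lower. A probe set shared by the H2A genes H2AC18 and H2AC19 read 6.82 and 6.77 against 8.38 and 8.36, the largest lower difference, at 2.97-fold. A second shared probe set of these genes differed by -0.92. H2BC4, a histone H2B gene, read 3.61 and 3.74 against 5.06 and 5.02, and the 3 probe sets it shares with other H2B genes differed by -0.82, -0.17 and 0, of which the second was detected. A probe set for the variant H3.3 genes was lower by 1.06, while the other 7 detected ones that name H3-3B differed by -0.29 to 0.07. Over 11 detected histone genes 1 passed, the linker histone H1-2 differed by -0.85, H2BC21 by -0.65 and H1-10 by -0.57, and the median was -0.33. In all array pairs 8 of the 11 were below and 3 above, where 33.2% of all detected genes were below and 38.6% above.

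Among genes just short of the rule SPNS2 differed by -0.95, CFAP69 by -0.94, SPICE1 by -0.93 and ALMS1-IT1 by -0.92, and the treated arrays of CFAP69 were apart, at 5.29 and 5.94. Of the other lower genes, ASH1L-AS1, an antisense transcript, read 5.55 and 5.58 against 6.64 and 6.51. The probe set annotated with MIRLET7D read 5.19 and 5.01 against 6.18 and 6.36, and it was not established that it reads the microRNA. SIN3A, a scaffold of histone deacetylase complexes, read 5.09 and 4.86 against 6.35 and 6.26, and its 3 other probe sets lay below 5 with differences of 0.00 to 0.03. For several lower probe sets the other probe sets of the gene differed. ZNF638 was lower by 1.24 on 1 probe set while its other 4 differed by 0.01 to 0.48, SERPINB9 differed by -1.01 and -0.03, and SBF2 by -1.03 and -0.06. WSB1, a substrate receptor of a ubiquitin ligase, differed by -1.03 on the probe set that passed and -0.69, -0.71 and -1.11 on the other 3 detected ones. Among higher genes SRSF10 had 1 probe set at 1.02 and 4 between -0.33 and 0.14.

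Of 27 detected hypoxia and glycolysis genes 0 passed the rule, 18 were below in all array pairs and 5 above, and the median was -0.13. The shares over all detected genes were 33.2% below and 38.6% above. The mitophagy receptor BNIP3L differed by -0.61, the aldolase ALDOC by -0.59, the collagen hydroxylase P4HA1 by -0.41 and the glycolytic regulator PFKFB3 by 0.49. Interferon response genes had a median of -0.19 over 6 detected of 20 measured, with GBP2 at -0.70 and the immunoproteasome subunit PSMB8 at -0.52, and MHC class I genes -0.05 over 13. Of oxidative stress genes AKR1C1 differed by -0.75 and the median was -0.09 over 14. Glucocorticoid and FOXO targets had a median of -0.12 over 11, with the insulin receptor substrate IRS2 at -0.77 and DUSP1 at 0.52. No gene of these 5 lists passed the rule.

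The other pathway lists had medians between -0.05 and 0.21, against 0.01 over all detected genes. Ribosomal protein genes had a median of -0.05 over 17 and a range of -0.17 to 0.07, and the proteasome -0.05 over 29. Cell cycle genes were at 0.04 over 24, the unfolded protein response at -0.01 over 26 and p53 targets at 0.05 over 13. Apoptosis regulators were at 0.03 over 19, EGFR family genes at -0.04 over 6 and danger signals at 0.02 over 10. Chaperonins with prefoldins were at 0.02 over 12. Cholesterol synthesis stood at 0.12 over 12 with MSMO1 at 0.52, splicing factors at 0.09 over 15 with SRSF7 at 0.46, and YAP targets at 0.21 over 8. Metallothioneins had a median of 0.06 over 7, although MT1F differed by 0.60, MT2A by 0.51 and MT1X by 0.45. Within the unfolded protein response the phosphatase subunit PPP1R15A differed by 0.71 while the HSP70 of the endoplasmic reticulum, HSPA5, differed by 0.21. Every positive median in this paragraph becomes negative on the spike-in scale. No gene of these lists passed the rule.

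**Figure D5:**
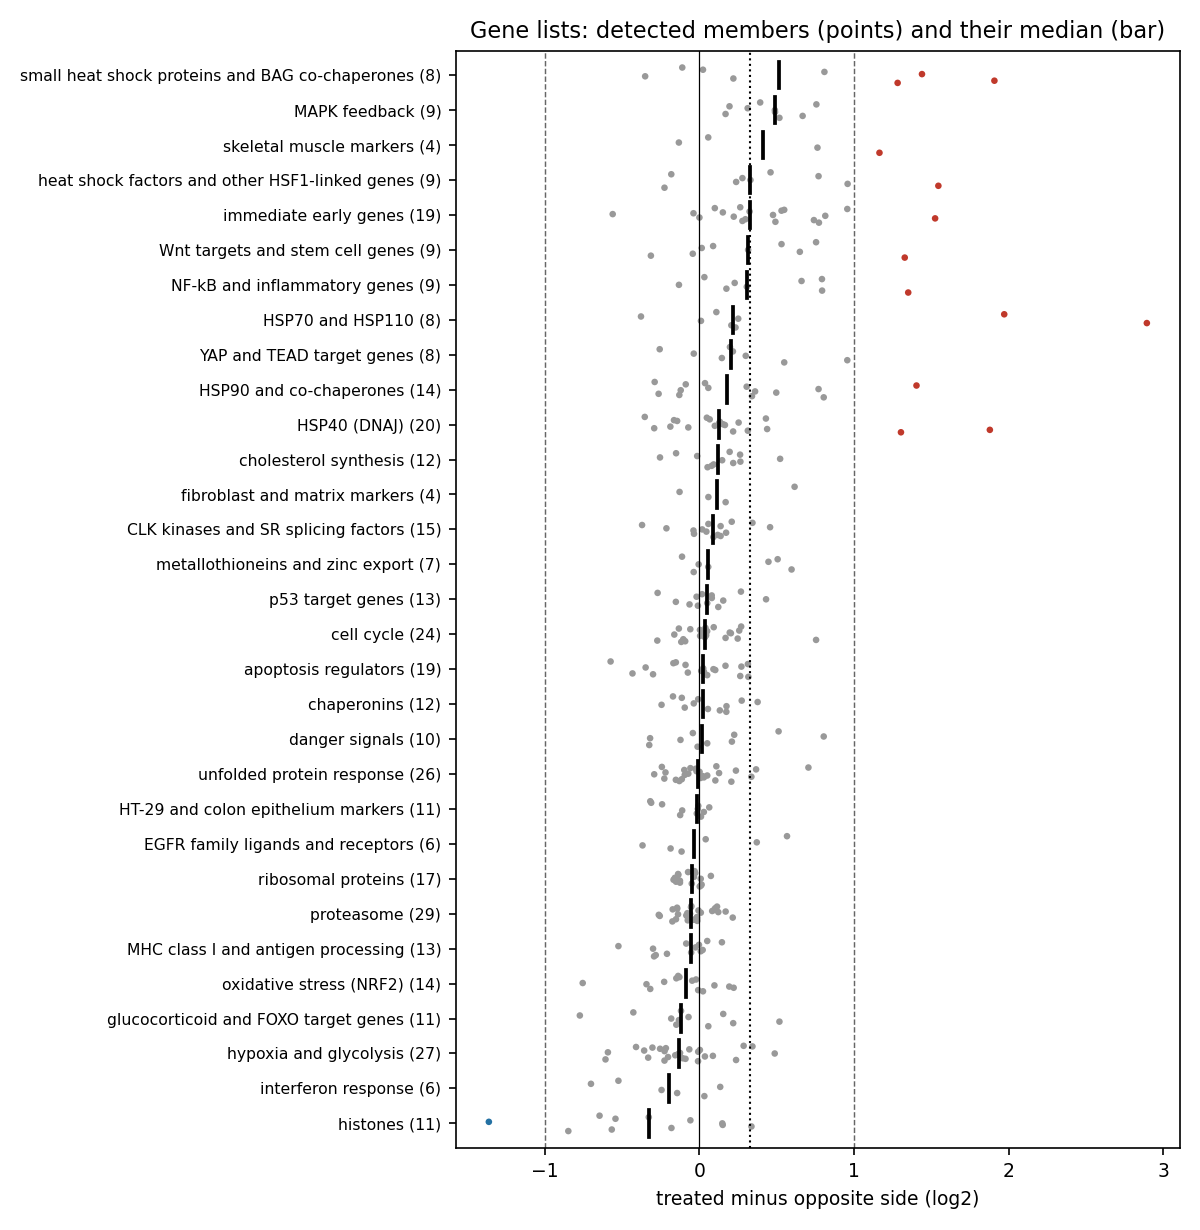
Treated minus opposite-side difference (log2) of each detected gene (points, red higher and blue lower by the size rule) in 31 gene lists, with the number of detected genes in brackets and the list median as a bar. The dotted line is the spike-in median of 0.33, and medians between 0 and that line become negative when the spike-ins are set equal.

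Of 15 HT-29 and colon epithelium markers 11 were detected, and 0 passed the rule. Their differences ranged from -0.32 (MUC13) to 0.06, with 7 below and 1 above in all array pairs and a median of -0.02. Of all detected genes 33.2% were below and 38.6% above in all array pairs. The levels included EPCAM at 12.54 and 12.53 and KRT20 at 12.40 and 12.41 as pool means. CDX1, CDX2, FABP1 and TFF3 lay below 5 on all 4 arrays. Of 14 skeletal muscle markers 10 lay below 5 on all 4 arrays, including the creatine kinase CKM (2.39 and 2.38). ACTA1, the skeletal muscle actin, was higher, at 5.26 and 5.29 against 4.11 on both opposite-side arrays, and the fast myosin light chain MYL11 differed by 0.76. The summed linear level of the muscle list was 367 to 376 on the treated and 309 on each opposite-side array, and 297 and 288 on the control arrays. For 11 fibroblast and matrix markers it was 823 to 834 against 695 to 710, and 385 and 423 on the control arrays. TAGLN differed by 0.62, and the defining markers DCN, SPARC and PDGFRB lay at or below 2.56. The probes are human and the hosts were mice, so low readings do not show that such cells were few. The endothelial list had FLT1 (0.14) as its detected gene, the leukocyte list LYZ (0.08), which epithelial cells can also make, and the adipose and epidermal list KRT10 (-0.23). The part of these cells in the differences was not tested.

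The array also carries control probe sets along the length of single transcripts. ACTB differed by -0.16 at its 5′ end and 0.08 at its 3′ end, and GAPDH by -0.45 and -0.03. One ribosomal RNA control read 11.97 and 11.99 against 10.41 and 10.40 at its 5′ end and 9.81 and 10.18 against 8.92 and 8.94 in its middle. The other ribosomal RNA control differed by -0.25 to 0.14. The part of RNA integrity in the differences was not tested.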

How the data were processed

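The deposited values are log2 expression values per probe set, 1 column per array, made with GCRMA per the submitters' processing notes (version not given in the sources used here). Values of 2.37 to 14.5 identify the scale as log2. Per the labels, total RNA came from macrodissected tissue and was labelled as biotinylated cRNA. On the 4 arrays 27.8% to 28.1% of the probe sets stood at the lowest value, where differences cannot be seen.

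Of the probe sets 41091 named 1 gene, 1801 several and 11721 none, and 41043 of the first (control probe sets included) were matched by Entrez identifier to current symbols. For each of 19775 genes the brightest probe set naming it alone, by its mean over all 6 arrays, was used. Pools were compared by the size rule. The rule was run on simulated data with array error alone, which cannot show how pools of different animals vary. Genes named are all those past the rule, those that differed by 0.9 to 1, probe sets past the rule (most without a gene by their range only), and up to 4 members per list with the largest difference. BAG1, DUSP2, DUSP8, DUSP10, ETV4, ETV5, HSPA5, JUNB, KLF2, SND1-IT1, SPRY1 and SPRY4 were added after their values were seen. So were the cell markers and the genes under other observations. The members and the lists were chosen with earlier results of these data known. Alternatives were other floors, minimum differences, agreement rules, scalings, probe set choices and leaving out each array. Python 3.11.15, numpy 2.4.6, pandas 2.3.3 and matplotlib 3.10.9 were used.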

Additional observations from a re-analysis of the deposited data

How the results depend on the processing

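As reported, 20 genes were higher and 4 lower, and 44 and 13 probe sets. The counts moved by over 1.5 times with these choices. A minimum of 1.5-fold gave 140 and 75 genes and 288 and 190 probe sets, and 3-fold gave 6 and 0 genes and 14 and 0 probe sets. Lower probe sets numbered 20 with a floor of 4, 21 with no floor, 6 with a floor of 6, and 7 when every array pair had to reach the minimum, which left 2 lower genes. Without probe sets ending in _x_at or _s_at 10 genes and 22 probe sets were higher. Taking any probe set of a gene gave 8 lower genes. Scaling by the median spike-in difference gave 11 and 42 genes and 21 and 117 probe sets, and scaling by the spike-in medians 17 lower genes and 29 and 56 probe sets. The spike-in difference of 0.33 was 0.32 for hybridisation and 0.34 for poly-A controls. Leaving out 1 array gave 20 to 22 genes higher and 3 to 6 lower, 42 to 46 and 13 to 19 probe sets, and spike-in differences of 0.32 to 0.34. Pairing same-numbered arrays (replicate block) left 20, 4, 44 and 13, and the deviations of same-numbered arrays had a correlation of -0.0031, so the numbers pair nothing. Averaging on the linear scale, quantile normalization and equal array medians kept the counts within 1.5 times. Of the 24 called genes 0 changed sign in any scaling, array or probe set choice run. The size rule fixed this in advance for leaving out arrays and for the spike-in scalings, which shifted differences by up to 0.33. With the median spike-in difference 9 of the 24 fell below the minimum difference, and with the spike-in medians 4 did. Over 31 list medians, 16 changed sign with the median spike-in difference, 13 with the spike-in medians, 3 with equal array medians, and 0 to 2 when an array was left out. The immediate early, NF-kB and Wnt lists changed sign with the median spike-in difference and not with the spike-in medians. Both spike-in scalings shift all genes of an array alike, so relative to the median over all detected genes 0 of the 31 changed sign. Values below 5 and single pools limit these results.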

Other observations

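Setting the spike-ins equal made 38 genes lower beside the 4 that were lower already, and 11 of the 20 higher genes remained. The 38 had deposited differences between -1.226 and -0.675. The genes named in this paragraph were chosen after their values were seen. CIRBP, the cold-inducible RNA-binding protein, read 8.58 and 8.61 in the heated pool, 9.44 and 9.36 on the opposite side, and 9.29 as the control mean, a difference of -0.81 (-1.14 on the spike-in scale). The lipoxygenase ALOX5 differed by -0.72, the iron transporter SLC11A2 by -0.81 and the spindle and centriole gene SPICE1 by -0.93. The 9 genes that were higher only on the deposited scale included DNAJA1 (1.30, and 0.97 on the spike-in scale), HSPB1 (1.28 and 0.95) and LGR5 (1.33 and 0.9985).

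Among genes below 5 in both pools, DNAJB4, an HSP40, differed by 1.11 and FOSL1, an AP-1 factor, by 1.23. KRT14, a basal keratin, stood at 4.07 in the heated pool, 3.04 on the opposite side and 2.41 in the control pool. These 3 were also picked after their values were seen.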
